A study of Mus musculus with 6 samples.

Results

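The proteins examined here build the nuclear pore or carry cargo through it: nucleoporins, importins, exportins and the proteins of the Ran GTPase cycle. The set held the protein-coding rows of the deposited table whose symbols begin with Nup and a digit, Kpna, Kpnb1, Ipo, Xpo or Tnpo, together with Ran, Ranbp1, Ranbp2, Rangap1, Rcc1 and Tpr. These were 50 of the 56748 genes in the table, of which 21970 were protein-coding. The symbols Nup42 and Nup58 did not occur in the table. The measurement was ribosome profiling, which sequences mRNA pieces protected by ribosomes during nuclease digestion, here 24 to 36 nt. All 6 libraries came from mouse Lin-c-Kit+ cells (lineage-negative, Kit-positive), labelled as hematopoietic stem cells, from mice that had received 4.5 Gy of radiation 12 days earlier. The groups were 3 wild-type (WT) and 3 Mov10 knockout libraries, so that irradiation was common to both. Mov10 is an RNA helicase linked to gene silencing and to the decay of transcripts. The labels name no strain and no age, and leave out how the knockout was made. Nor is it stated that replicates are separate animals, so p-values measure the spread between these libraries, which may be technical.

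The nuclear pore complex is a ring-shaped channel through the nuclear envelope. An outer ring and an inner ring of scaffold nucleoporins hold it in the membrane, nucleoporins rich in phenylalanine-glycine repeats fill its channel, and filaments and a basket reach into the cytoplasm and the nucleus. Importins bind cargo in the cytoplasm and exportins bind it in the nucleus, and the small GTPase Ran sets the direction, because its GTP form, kept high in the nucleus by Rcc1 and low in the cytoplasm by Rangap1, releases import cargo and holds export cargo. In blood cells the family is known for gene fusions of NUP98 and NUP214 in leukaemia and for the exportin XPO1 as a drug target. A footprint level rises with the number of transcripts as well as with ribosomes per transcript, and transcript levels were not analysed here.

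WT libraries held 2407091, 2499634 and 2260348 recovered reads and knockout libraries 1352517, 1118345 and 1257956, and every knockout library was thus shallower than every WT library. Levels are normalized reads, which are reads divided by the authors' size factor, and 1 read is worth 0.614 to 0.681 in WT and 1.34 to 1.62 in the knockout. Mov10 itself had 110.4, 106 and 104 normalized reads in the WT libraries and 51.0, 89.0 and 46.3 in the knockout libraries, lower in 3 of 3 knockout libraries, and did not pass the threshold (log2 fold change -0.84, SE 0.27, adjusted p = 0.0598). It passed in 4 alternatives (adjusted p = 0.0429 with TMM scaling, 0.0247 by library totals, 0.0330 with a mean of at least 50 and 0.00692 without knockout replicate 2, between 0.00692 and 0.205 across the 19 alternatives), and without knockout replicate 2 its value was -1.12 on the log2 scale. Kit, which the sort selects for, had 1115, 1083 and 1100.5 normalized reads in the WT libraries and 1124, 1157 and 1085 in the knockout libraries. Of 8 stem and progenitor markers 8 were tested and 0 were called by limma, and their summed level was 1574 to 1604 in WT and 1454 to 1569 in the knockout. Every knockout sum thus lay below every WT sum, and Kit, which is on this list, made up most of each sum. Markers of other cells also moved with genotype: the summed level of 8 neutrophil markers was 30579 to 36467 in WT and 45676 to 47667 in the knockout (3 higher, 3 lower), that of 8 erythroid markers 728 to 771 in WT and 1833 to 1975 in the knockout (4 higher, 1 lower), and that of 7 B cell markers 226 to 232 in WT and 495 to 527 in the knockout (4 higher). The sum of 5 mast cell, basophil and eosinophil markers was 12476 to 15545 in WT and 17938 to 20015 in the knockout (3 higher), of 6 monocyte and macrophage markers 1734 to 1858 in WT and 1549 to 1742 in the knockout (1 lower), of 4 T and NK cell markers 271 to 323 in WT and 199.7 to 223 in the knockout (1 lower), and of 4 megakaryocyte markers 318 to 383 in WT and 445 to 686 in the knockout (1 of 3 tested higher). Gp1bb of the last list was at 0 in every library, and no other marker of these 8 lists was. The part of these markers in the values below was not tested. Reads of overlapping genes may also be shared, since it is not stated whether counting used the strand: 12 members, 7 of them called, overlap a gene with at least 5% of their own level, among them Tpr with Odr4 on the opposite strand (at 119 against 71.0, not called). In such bulk libraries fewer cells of a type and less RNA per cell cannot be told apart.

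Of the 50 transport genes, 48 had a mean of at least 1 normalized read and entered the limma fit over 17114 genes, in which a gene counts as called when its p, adjusted by Benjamini-Hochberg, is under 0.05. In the knockout 19 were higher and 4 lower, and 25 were not called. Over all tested genes 10.3% were called higher and 10.9% lower (21.2% either way). The higher genes were Ipo7, Xpo6, Xpo5, Nup43, Nup160, Nup98, Ranbp1, Tpr, Nup205, Nup107, Kpnb1, Nup188, Ipo8, Nup93, Ipo5, Nup85, Nup88, Ranbp2 and Nup210, by 1.27- to 2.75-fold, 7 of them by 2-fold or more. The lower genes were Ran, Kpna4, Rangap1 and Tnpo3, by 1.40- to 1.90-fold. The groups did not overlap in 32 of the 48 tested genes, against 39.8% of all tested genes. The split of 19 higher and 4 lower became 22 and 2 after upper-quartile scaling, 14 and 7 by library totals, 18 and 4 with TMM scaling and 15 and 5 after cyclic loess. Shares of all tested genes called higher and lower moved as well, to 13.2% and 7.83% after upper-quartile scaling and 7.49% and 16.8% by library totals. They were 9.14% and 13.2% with TMM scaling and 9.92% and 8.11% after cyclic loess. The authors' deposited table, at its own adjusted p under 0.05, called 18 higher and 5 lower, of which 22 were among the 23 called by limma. DESeq2 on recovered reads also called 18 and 5. All of these use the same 6 libraries and are not separate evidence.

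**Figure D1:**
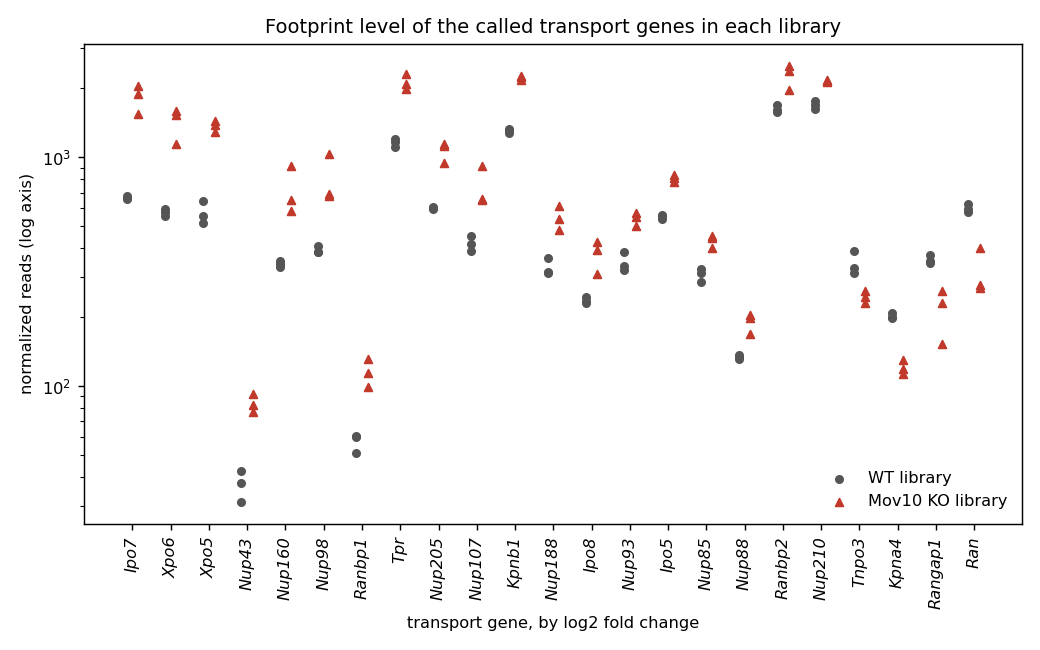
Normalized reads (log axis) of the 23 called transport genes in each library, ordered by log2 fold change, with WT libraries as circles and Mov10 knockout libraries as triangles. The 3 knockout libraries lie wholly above the 3 WT libraries for the 19 genes from Ipo7 to Nup210 and wholly below them for Tnpo3, Kpna4, Rangap1 and Ran.

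Counts were also taken by the level of the genes in WT, in classes chosen after the data were seen. Of 10 transport genes with a WT mean of 500 or more normalized reads 9 were higher and 1, Ran, lower, where 42.0% of all tested genes at that WT level were higher and 23.3% lower. Of 20 with a WT mean of 200 to 500, 7 were higher and 3 lower, against 25.3% and 21.3%. Of 13 with a WT mean of 50 to 200, 2 were higher and 0 lower, against 14.3% and 13.7%, and of 5 under 50 Nup43 was higher and 0 were lower, against 5.18% and 7.84%. From the highest class to the lowest, the median log2 fold change of the transport genes was 0.79, 0.16, 0.096 and 0.63, beside 0.18, -0.040, -0.14 and -0.26 for all tested genes. With classes by the mean of all 6 libraries, into which the change itself enters, 12 of 13 genes at 500 or more were higher and 0 lower, against 58.0% and 12.1% of all tested genes. Nup160, Nup98, Nup107 and Xpo1 reached that class through their knockout values, and Ran left it. Over all levels the median was 0.28 for the 48 transport genes and -0.17 for all tested genes. That distance of 0.45 depended on which genes and which scaling stood beside the members: it was 0.075 with DESeq2 (over 28131 genes without a filter, whose median lay 0.39 higher), 0.087 after cyclic loess, which removes a trend of fold change with level, 0.31 with a mean of at least 50 and 0.36 with edgeR. In the other alternatives it was 0.39 to 0.59. Spearman correlations of log2 fold change with WT level and with gene length were 0.39 and 0.16 over the 48 genes. Over all 13457 tested protein-coding genes, filtered as the 48 were, they were 0.022 and 0.072. They were 0.14 and -0.012 over 6256 protein-coding genes with a WT mean of at least 50. Over 6188 with a mean of at least 50 in all 6 libraries they were -0.081 and -0.078. Values over protein-coding genes thus depended on the filter. These points are genes of the same 6 libraries and not independent replicates, and the WT level also enters the fold change.

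**Figure D2:**
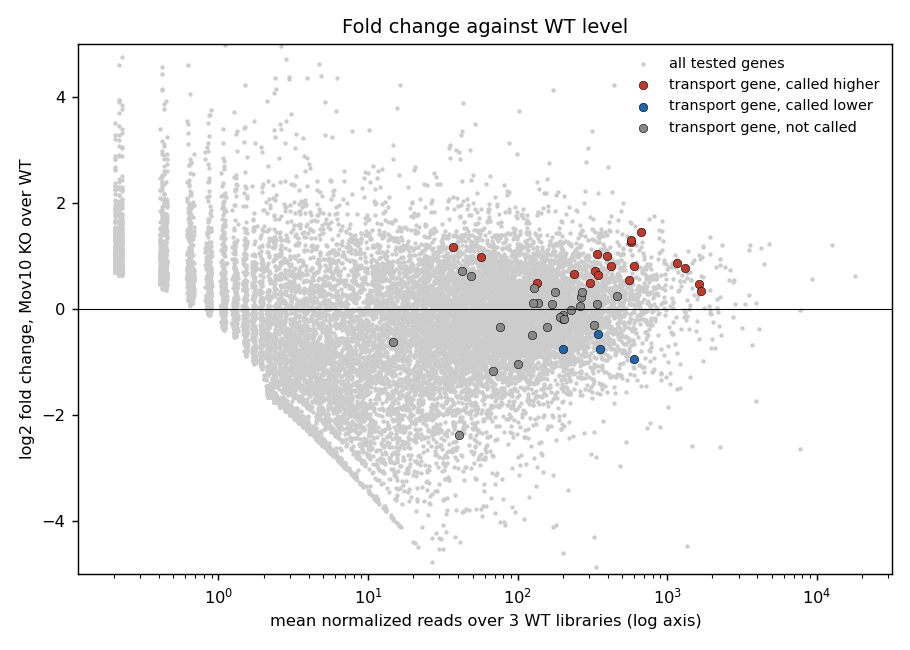
Log2 fold change (Mov10 knockout over WT) against mean normalized reads over the 3 WT libraries (log axis) for tested genes with WT reads (grey, 480 genes at 0 in WT are not drawn and 28 lie outside the vertical axis) and the 48 tested transport genes (called higher in red, called lower in blue, not called in dark grey). At a WT mean of 500 or more, 9 of 10 transport genes are called higher and Ran is called lower.

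The promoter letters of the 3 higher genes with the smallest p and of Ran, the lower gene with the smallest p, are shown because these genes anchor each direction. Sequences are the 250 bases before the gene start from RefSeq (GRCm38.p6, another build than that of the counts), 5′ to 3′ on the gene's strand, with motif matches in capitals. Motifs were searched on both strands. They were the E-box, which reads CACGTG, and the box named CCAAT. The GC box was searched as GGGCGG, so that a match on the other strand appears reversed and complemented. The ETS motif was searched as CCGGAAG, and the palindromic NRF1 motif was the last. No matches overlap. The windows are chr7:110018065-110018314 on the plus strand for Ipo7, chr11:97187893-97188142 on the minus strand for Kpnb1, chr17:46202561-46202810 on the plus strand for Xpo5 and chr5:129019906-129020155 on the plus strand for Ran.
Ipo7: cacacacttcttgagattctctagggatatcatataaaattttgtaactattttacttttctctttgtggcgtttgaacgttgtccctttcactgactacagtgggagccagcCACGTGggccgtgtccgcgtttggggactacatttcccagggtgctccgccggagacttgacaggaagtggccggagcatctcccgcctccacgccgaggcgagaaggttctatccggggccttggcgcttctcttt
Kpnb1: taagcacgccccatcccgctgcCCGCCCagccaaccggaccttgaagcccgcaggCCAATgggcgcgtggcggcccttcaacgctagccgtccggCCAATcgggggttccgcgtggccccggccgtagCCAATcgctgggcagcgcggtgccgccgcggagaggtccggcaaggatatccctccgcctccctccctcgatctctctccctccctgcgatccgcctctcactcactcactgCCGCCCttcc
Xpo5: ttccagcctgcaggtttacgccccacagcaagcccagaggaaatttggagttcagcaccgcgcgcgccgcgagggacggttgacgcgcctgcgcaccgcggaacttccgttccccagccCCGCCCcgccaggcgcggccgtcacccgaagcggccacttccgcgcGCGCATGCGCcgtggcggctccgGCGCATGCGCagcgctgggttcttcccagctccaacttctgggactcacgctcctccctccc
Ran: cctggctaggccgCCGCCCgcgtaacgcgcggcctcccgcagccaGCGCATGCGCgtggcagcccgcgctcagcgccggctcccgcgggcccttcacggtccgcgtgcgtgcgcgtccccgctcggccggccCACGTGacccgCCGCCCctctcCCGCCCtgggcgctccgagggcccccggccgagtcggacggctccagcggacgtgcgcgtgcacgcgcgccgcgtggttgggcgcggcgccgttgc
Ipo7 holds the E-box starting 137 bases before the start, and Ran holds it 118 bases before. Kpnb1 holds 3 copies of CCAAT, at 195, 155 and 122 bases before the start. The NRF1 motif occurs in Xpo5 at 85 and 62 bases before the start and in Ran at 205. Promoter windows matched 41 of the 50 members (48 windows, some genes having several starts). The NRF1 motif was in 10.4% of these windows and in 1.07% of 21263 windows of protein-coding genes, the E-box in 16.7% and 6.63%, the CCAAT box in 47.9% and 35.4%, the GC box in 62.5% and 42.6%, and the ETS motif in 14.6% and 8.98%. By call, the NRF1 motif was in 2 of 20 windows of higher genes, 1 of 4 windows of lower genes and 2 of 22 windows of genes not called. The windows of protein-coding genes were not limited to genes read in these cells. A match is a run of letters and no measured binding site.

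The outer ring, also named the Y complex after its shape, is the coat that curves the pore membrane. The naming rule took 7 of its genes, and of these 5 were higher and 0 lower. Nup107, Nup133, Nup160, Nup85 and Nup98 had a WT mean of 200 to 500, where 25.3% of all tested genes were higher and 21.3% lower. Nup37 and Nup43 lay under 50, where the shares were 5.18% and 7.84%. No count by role, here or below, was tested against such shares. All 7 outer ring genes of the set had a positive log2 fold change (the median of all tested genes was -0.17), also under the 4 other scalings tried. Its subunits outside the rule did not all share that sign: Ahctf1 was higher (1.38), and Sec13 (-0.067) and Seh1l (-0.069) were not called. Nup160 had 349.9, 331 and 341 normalized reads in the WT libraries and 652, 914 and 580.2 in the knockout libraries. Nup160 was 2.10-fold higher (log2 fold change 1.04, SE 0.16, adjusted p = 0.00299; chromosome 2, 90507559 to 90566672, plus strand, GRCm39 as for all positions here). Knockout replicate 2 stood highest, and the lowest knockout library still lay well above every WT library. The Nup98 gene, whose product is cut into the channel protein Nup98 and the ring protein Nup96, was also highest in knockout replicate 2, at 384, 409 and 384 normalized reads in the WT libraries and 677, 1027 and 689 in the knockout libraries. Nup98 was 2.03-fold higher (log2 fold change 0.99, SE 0.16, adjusted p = 0.00359). In Nup107, a scaffold subunit, knockout replicate 3 was the highest: it had 454, 415 and 390.4 normalized reads in the WT libraries and 658, 652 and 915 in the knockout libraries. Nup107 was 1.77-fold higher (log2 fold change 0.80, SE 0.14, adjusted p = 0.00591). Its call was lost without WT replicate 3 (adjusted p = 0.0505, between 9.45e-07 and 0.0699 across the 19 alternatives).

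The other outer ring genes of the set were read less. Nup43, a propeller-shaped subunit, rose 2.27-fold from few reads, 37.0 ± 5.61 in WT against 83.9 ± 8.01 in the knockout (mean ± SD, n = 3 libraries each, as throughout; adjusted p = 0.0126). Its position overlaps Pcmt1 on the opposite strand, itself called higher, at 125 normalized reads against 251. Without WT replicates 1 and 3 the call of Nup43 was lost (adjusted p = 0.0639 and 0.0622, between 0.00353 and 0.0639 across the 19 alternatives). Nup85, a subunit of a short arm of the Y, rose 1.41-fold, 306 ± 20.1 in WT against 432 ± 27.3 in the knockout, and lost its call without WT replicates 2 and 3 (adjusted p = 0.0769 and 0.0691, between 0.00346 and 0.137 across the 19 alternatives). Nup133, the membrane-sensing tip of the stem, had 271 ± 4.96 in WT against 339 ± 25.7 in the knockout and did not pass (log2 fold change 0.32, interval 0.071 to 0.57), though its groups did not overlap and it passed in 4 alternatives (adjusted p = 0.0467 with edgeR, 0.0484 with a mean of at least 50, 0.0111 after upper-quartile scaling and 0.0331 without knockout replicate 2, between 0.0111 and 0.577 across the 19 alternatives). Nup37 had 48.7 ± 4.63 in WT against 79.9 ± 32.7 in the knockout with overlapping groups. These 7 genes took 0.117% ± 0.00221 of all reads in WT and 0.176% ± 0.0183 in the knockout.

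The inner ring bridges the scaffold to the channel, and 3 of its 5 genes rose. Nup205 had a WT mean of 500 or more, where 42.0% of all tested genes were higher and 23.3% lower. Nup188, Nup93 and Nup155 had one of 200 to 500 (25.3% and 21.3%) and Nup35 one under 50 (5.18% and 7.84%). Nup205, a large solenoid scaffold protein, had 608, 596 and 599.6 normalized reads in the WT libraries and 1136, 938 and 1116 in the knockout libraries. Nup205 was 1.77-fold higher (log2 fold change 0.82, SE 0.092, adjusted p = 6.24e-04; chromosome 6, 35154356 to 35224531, plus strand). WT libraries were nearly level here, and the lowest knockout library stood far above them. Its paralog Nup188 rose 1.65-fold, from 362, 315 and 312 in the WT libraries to 536, 482 and 612 in the knockout libraries (log2 fold change 0.72, SE 0.12, adjusted p = 0.00471). Nup93, the hub that binds both, rose 1.56-fold, with 383, 336 and 321 normalized reads in the WT libraries and 500.2, 571 and 547 in the knockout libraries (log2 fold change 0.64, SE 0.11, adjusted p = 0.00492). Nup155, which contacts the membrane, had 341 ± 43.1 in WT against 365 ± 63.9 in the knockout, with overlapping groups and an interval of -0.26 to 0.44 on the log2 scale. Nup35, a small membrane-bending member, went the other way in value: it had 39.0, 49.1 and 32.7 normalized reads in the WT libraries and 1.34, 24.3 and 7.24 in the knockout libraries, with no overlap, on few reads, and did not pass (log2 fold change -2.37, SE 0.81, adjusted p = 0.0700). It passed in 4 alternatives (adjusted p = 0.0380 with DESeq2, 0.0468 by library totals, 0.0248 with the replicate block and 0.0144 without knockout replicate 2, between 0.0144 and 0.261 across the 18 alternatives), and in the authors' deposited table it is the 1 member called there and not by limma (adjusted p = 0.0347). That deposited value lay near the 0.0380 of DESeq2 on the same reads and is no separate support. Nup35 shares a strand and position with Dusp19, itself at 13.7 in WT against 14.5 in the knockout. The 5 genes took 0.107% ± 0.00572 of all reads in WT and 0.139% ± 0.00347 in the knockout.

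Nup210, the transmembrane ring protein, was among the most read members and rose by a small step. It had 1757, 1616 and 1684 normalized reads in the WT libraries and 2126, 2161 and 2146 in the knockout libraries. Nup210 was 1.27-fold higher (log2 fold change 0.35, SE 0.057, adjusted p = 0.00431), and after cyclic loess the sign turned and it was called lower (log2 fold change -0.23, adjusted p = 0.0207, between 8.46e-06 and 0.248 across the 19 alternatives). Its paralog Nup210l was read rarely, 14.8 ± 3.14 in WT against 10.3 ± 6.45 in the knockout. In the central channel, where repeat-rich proteins form the barrier, neither tested gene was called. Nup62 had 153, 125 and 129 normalized reads in the WT libraries and 223, 80.9 and 174 in the knockout libraries, with knockout replicate 2 below every WT library and the other knockout libraries above them. Nup54 had 73.4, 68.1 and 64.1 normalized reads in the WT libraries and 13.4, 37.2 and 52.1 in the knockout libraries, without overlap, and did not pass (log2 fold change -1.17, SE 0.46, adjusted p = 0.110), but passed without knockout replicate 3 (adjusted p = 0.0389, between 0.0389 and 0.312 across the 19 alternatives).

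On the cytoplasmic side, 2 of 3 genes rose. Of all tested genes, 42.0% were higher and 23.3% lower at the WT level of Ranbp2 (500 or more). The shares were 25.3% and 21.3% at that of Nup214 (200 to 500) and 14.3% and 13.7% at that of Nup88 (50 to 200). Ranbp2, the giant filament protein that docks Rangap1 and acts as a SUMO ligase, had 1578, 1612 and 1682 normalized reads in the WT libraries and 2367, 2505 and 1958 in the knockout libraries. Ranbp2 was 1.40-fold higher (log2 fold change 0.48, SE 0.092, adjusted p = 0.00854), and after cyclic loess its value turned to -0.098 and was not called. Without WT replicates 1, 2 and 3 in turn its adjusted p was 0.0549, 0.0567 and 0.0512, between 2.39e-06 and 0.490 across the 19 alternatives. Nup88, which anchors the mRNA export platform with Nup214, rose 1.42-fold, 134 ± 3.14 in WT against 189.8 ± 19.0 in the knockout (adjusted p = 0.0431). That call was lost in 13 alternatives, among them each WT replicate left out in turn (adjusted p = 0.131, 0.155 and 0.137) and knockout replicates 1 and 3 (0.0524 and 0.0536), between 0.00963 and 0.214 across the 19 alternatives. The gene overlaps Rabep1 on the opposite strand, itself not called, at 84.0 in WT against 58.7 in the knockout. Nup214 had 226 ± 15.5 in WT against 228 ± 69.3 in the knockout, and its log2 fold change of -0.023 (interval -0.50 to 0.45) changed sign between alternatives. On the nuclear side, Tpr, the coiled-coil protein that forms the basket, had 1196, 1109.6 and 1169 normalized reads in the WT libraries and 2303, 1983 and 2091 in the knockout libraries. Tpr was 1.84-fold higher (log2 fold change 0.87, SE 0.073, adjusted p = 1.22e-04; chromosome 1, 150268589 to 150325686, plus strand). All 3 knockout libraries lay far above the highest WT library. The other basket genes were not called: Nup153, the docking site of the basket, had 203 ± 6.59 in WT against 179.8 ± 20.3 in the knockout, and Nup50, a cofactor of import, had 178 ± 10.2 in WT against 235 ± 102 in the knockout, its mean carried by knockout replicate 2 at 346.

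**Figure D3:**
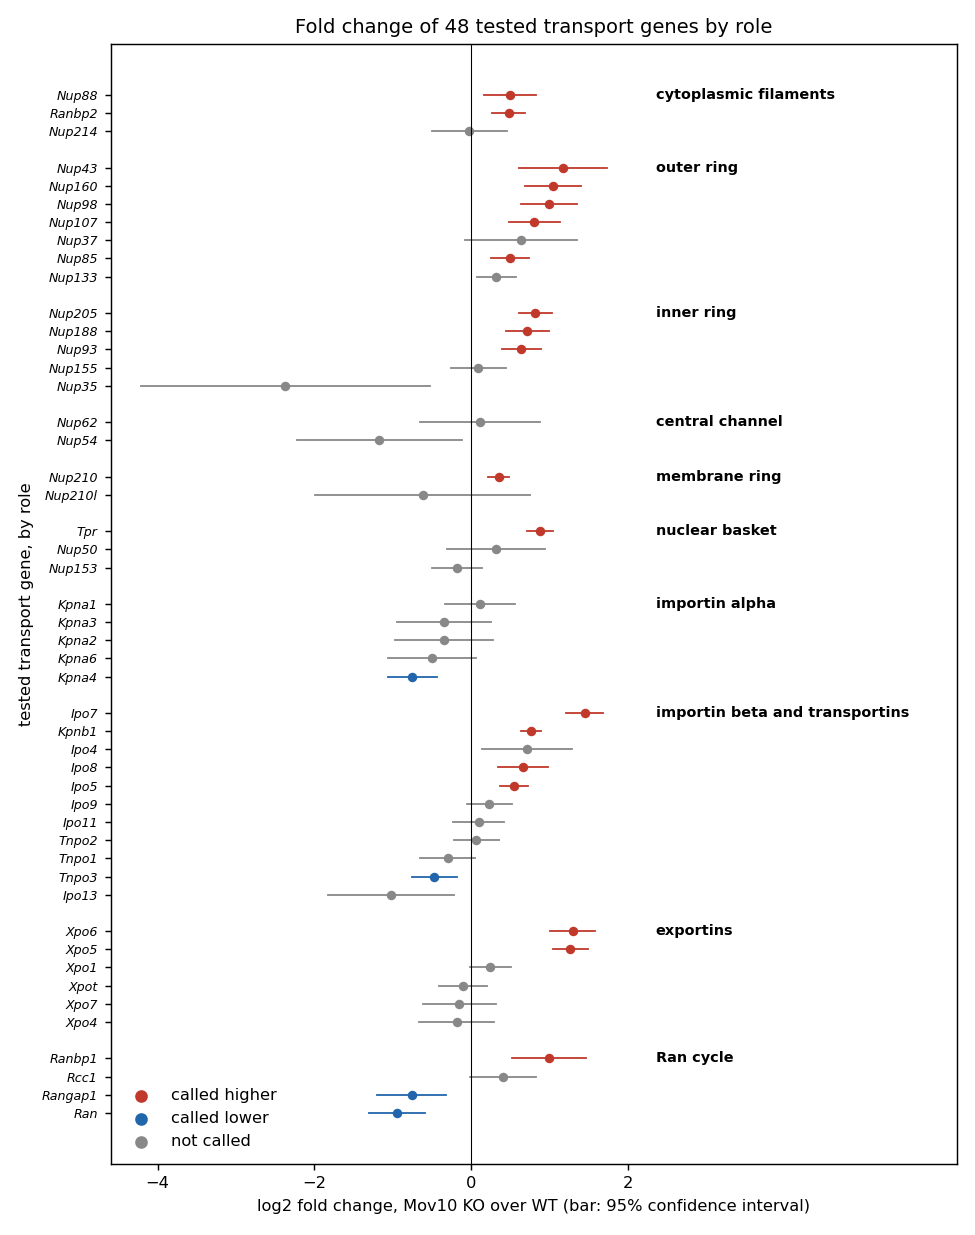
Log2 fold change (Mov10 knockout over WT) with its 95% confidence interval for the 48 tested transport genes, grouped by role and coloured by call. The 7 outer ring genes that match the naming rule lie above 0, while 4 of 5 importin alpha genes lie below 0 (5 of 5 by library totals). The median of all tested genes also lies below 0, at -0.17.

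Among the carriers, the importin beta family had 11 tested genes, of which 4 were higher and 1 lower. These carriers bind the pore directly, most of them with their cargo in hand. Kpnb1, Ipo5 and Ipo7 had a WT mean of 500 or more, where 42.0% of all tested genes were higher and 23.3% lower. Ipo8, Ipo9 and the Tnpo genes had one of 200 to 500 (25.3% and 21.3%). Ipo11 and Ipo13 had one of 50 to 200 (14.3% and 13.7%) and Ipo4 one under 50 (5.18% and 7.84%). Ipo7, an importer of ribosomal proteins and, with importin beta, of linker histones, had 656, 661 and 673 normalized reads in the WT libraries and 2038, 1884 and 1538 in the knockout libraries. Ipo7 was 2.75-fold higher (log2 fold change 1.45, SE 0.10, adjusted p = 5.46e-05; chromosome 7, 109617481 to 109655816, plus strand). It had the largest fold among the called transport genes, and its lowest knockout library was far above the highest WT library. The snoRNA gene Snora23 lies within Ipo7 on the same strand and had 6.49, 5.52 and 0.681 normalized reads in the WT libraries and 211, 228 and 184 in the knockout libraries, a log2 fold change of 5.58; that is 0.638% of the Ipo7 level in WT and 11.4% in the knockout, and what part of the Ipo7 reads it gave was not tested. Kpnb1, importin beta itself, which takes classical cargo through the adaptor importin alpha, had 1324, 1310.2 and 1277 normalized reads in the WT libraries and 2264, 2232 and 2163 in the knockout libraries. Kpnb1 was 1.70-fold higher (log2 fold change 0.77, SE 0.056, adjusted p = 6.14e-05; chromosome 11, 97050540 to 97078707, minus strand). Its libraries were tight in each genotype. Ipo5, an importer of ribosomal proteins and histones, had 555, 560.3 and 538 normalized reads in the WT libraries and 833, 809 and 774 in the knockout libraries. Ipo5 was 1.46-fold higher (log2 fold change 0.55, SE 0.077, adjusted p = 0.00211), and lost its call after cyclic loess (adjusted p = 0.111, between 1.99e-06 and 0.111 across the 19 alternatives). Ipo8, the paralog of Ipo7, which also carries Argonaute proteins, rose 1.59-fold, 236 ± 7.07 in WT against 376 ± 60.1 in the knockout, and lost its call without each WT replicate in turn (adjusted p = 0.0649, 0.0726 and 0.0643, between 6.14e-04 and 0.0968 across the 19 alternatives).

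The transportins import RNA-binding proteins, and of 3 tested 1 was lower and the others were not called. Tnpo3, the importer of SR splicing factors, had 311, 326 and 388 normalized reads in the WT libraries and 245, 259 and 230.1 in the knockout libraries. Tnpo3 was 1.40-fold lower (log2 fold change -0.47, SE 0.13, adjusted p = 0.0305). The call was lost without WT replicates 1, 2 and 3 in turn (adjusted p = 0.0677, 0.101 and 0.151) and with upper-quartile scaling (0.181), between 0.00659 and 0.181 across the 19 alternatives. Tnpo3 overlaps Irf5 on the opposite strand, which was called lower as well, at 79.4 against 31.8. Tnpo1, which carries hnRNP proteins, had 322 ± 19.3 in WT against 264 ± 48.5 in the knockout, and its close paralog Tnpo2 had 261 ± 7.01 in WT against 274 ± 32.7 in the knockout, neither of them called. Tnpo1 passed in 1 alternative (adjusted p = 0.0366 by library totals, between 0.0366 and 0.702 across the 19 alternatives). Ipo9 (266 ± 5.27 in WT against 315 ± 42.3 in the knockout), an importer of histones, and Ipo11 (169.6 ± 8.14 in WT against 182 ± 19.6 in the knockout) were not called, with intervals of -0.058 to 0.52 and -0.23 to 0.42 on the log2 scale. Ipo4, another histone importer, had 42.3 ± 7.62 in WT against 69.2 ± 1.95 in the knockout and Ipo13, which carries cargo in both directions, had 99.9 ± 11.6 in WT against 52.4 ± 26.0 in the knockout. Neither of these overlapped between the genotypes and neither passed (adjusted p = 0.0785 and 0.0717). In alternatives Ipo4 passed in 2 (adjusted p = 0.0454 after cyclic loess and 0.0344 after upper-quartile scaling, between 0.0344 and 0.277 across the 19 alternatives) and Ipo13 in 4 (adjusted p = 0.0337 by library totals, 0.0352 with a mean of at least 50, 0.0424 with the replicate block and 0.0130 without knockout replicate 1, between 0.0130 and 0.262 across the 19 alternatives). The 11 genes together took 0.275% ± 0.00467 of all reads in WT and 0.365% ± 0.0208 in the knockout.

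Importin alpha proteins recognise the classical nuclear localisation signal and hand the cargo to importin beta, and none of them was called higher. Of 5 tested, 0 were higher by limma at the threshold (0 at an unadjusted p under 0.05, and 0 by edgeR and by DESeq2) and 1 was lower. Kpna1, Kpna2, Kpna3 and Kpna6 had a WT mean of 50 to 200, where 14.3% of all tested genes were higher and 13.7% lower. Kpna4 had one of 200 to 500, where the shares were 25.3% and 21.3%. So few genes cannot be told apart from these shares. Kpna4 had 208, 199 and 200.3 normalized reads in the WT libraries and 118, 129 and 113 in the knockout libraries. Kpna4 was 1.68-fold lower (log2 fold change -0.75, SE 0.14, adjusted p = 0.00763; chromosome 3, 68974482 to 69034446, minus strand). The genotypes were widely apart and tight, yet without WT replicates 1, 2 and 3 in turn the adjusted p was 0.0514, 0.0503 and 0.0538, between 0.00228 and 0.0538 across the 19 alternatives. Its near paralog Kpna3 had 157, 145 and 168 normalized reads in the WT libraries and 133, 173 and 81.0 in the knockout libraries, with knockout replicate 2 above the WT libraries and replicate 3 far below them. Kpna6 had 123, 122 and 127 normalized reads in the WT libraries and 87.2, 63.1 and 122 in the knockout libraries, and passed without knockout replicate 3 alone (adjusted p = 0.0326, between 0.0326 and 0.410 across the 19 alternatives). Kpna2, the form known from dividing cells, had 76.0 ± 9.16 in WT against 61.0 ± 16.7 in the knockout, and Kpna1 had 126 ± 12.3 in WT against 138 ± 27.6 in the knockout, positive on the log2 scale except by library totals (-0.12). Kpna7 was not tested, with 0 reads in the WT libraries and 1, 0 and 1 in the knockout libraries. Importin alpha genes took 0.0443% ± 0.00211 of all reads in WT and 0.0297% ± 0.00144 in the knockout, without overlap. The ratio of knockout to WT was 0.671 by share and 0.787 with summed normalized reads. The difference in fold change between Kpnb1 and its adaptors was not tested.

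Of 6 exportins tested, Xpo5 and Xpo6 were higher and the other 4 were not called. Xpo5 and Xpo6 had a WT mean of 500 or more, where 42.0% of all tested genes were higher and 23.3% lower. Xpo1, Xpo4 and Xpot had one of 200 to 500 (25.3% and 21.3%) and Xpo7 one of 50 to 200 (14.3% and 13.7%). Xpo5, which takes microRNA precursors out of the nucleus, had 645, 516 and 553 normalized reads in the WT libraries and 1376, 1288 and 1437 in the knockout libraries. Xpo5 was 2.39-fold higher (log2 fold change 1.26, SE 0.098, adjusted p = 8.27e-05; chromosome 17, 46513708 to 46554524, plus strand). Xpo6, the exporter of actin with profilin, had 575, 591 and 555 normalized reads in the WT libraries and 1595, 1530.1 and 1143 in the knockout libraries. Xpo6 was 2.48-fold higher (log2 fold change 1.29, SE 0.12, adjusted p = 2.57e-04; chromosome 7, 125700887 to 125799673, minus strand). In both, every knockout library lay far above every WT library. Xpo1, the general exporter of proteins with a leucine-rich signal, had 470.0, 449 and 463 normalized reads in the WT libraries and 616, 563 and 470.3 in the knockout libraries, with knockout replicate 3 level with the highest WT library. It did not pass (log2 fold change 0.24, SE 0.11, adjusted p = 0.169, interval -0.015 to 0.50), passed in 2 alternatives (adjusted p = 0.0378 after upper-quartile scaling and 0.0254 without knockout replicate 3, between 0.0254 and 0.940 across the 19 alternatives), and turned sign after cyclic loess (-0.037). Xpo4, an exporter of the translation factor eIF5A, had 201 ± 3.12 in WT against 182 ± 51.5 in the knockout, Xpot, the tRNA exporter, had 201 ± 17.5 in WT against 186 ± 12.5 in the knockout, and Xpo7 had 191 ± 34.9 in WT against 172 ± 33.3 in the knockout, all with overlapping groups. The interval of the log2 fold change was -0.42 to 0.20 for Xpot and -0.67 to 0.29 for Xpo4. Exportins took 0.142% ± 0.00162 of all reads in WT and 0.214% ± 0.0171 in the knockout.

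**Figure D4:**
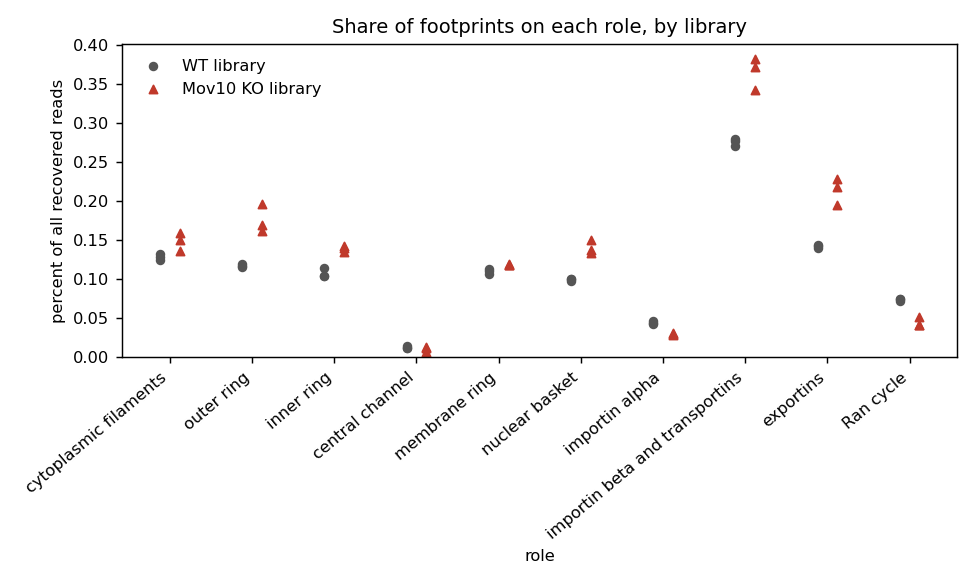
Share of all recovered reads (percent) on the genes of each role in each library, with WT libraries as circles and Mov10 knockout libraries as triangles. Importin alpha and Ran cycle genes are the roles whose knockout libraries lie wholly below the WT libraries; the central channel overlaps, and the other 7 roles lie wholly above.

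In the Ran cycle the GTPase and its cytoplasmic off-switch were lower while a helper of that switch was higher. Ran had 578, 593 and 621 normalized reads in the WT libraries and 268, 275 and 401 in the knockout libraries. Ran was 1.90-fold lower (log2 fold change -0.95, SE 0.16, adjusted p = 0.00434; chromosome 5, 129097133 to 129101387, plus strand). The knockout library nearest to WT, replicate 3, still lay far below the lowest WT library. Rangap1, the activator of GTP hydrolysis, had 352, 373 and 343 normalized reads in the WT libraries and 153, 231 and 260.5 in the knockout libraries. Rangap1 was 1.66-fold lower (log2 fold change -0.76, SE 0.19, adjusted p = 0.0253). Its call was lost without WT replicates 1, 2 and 3 in turn (adjusted p = 0.101, 0.118 and 0.0998) and with upper-quartile scaling (0.0685), between 0.00213 and 0.118 across the 19 alternatives, and it overlaps Zc3h7b on the opposite strand, itself not called, at 148 in WT against 107 in the knockout. Ranbp1, which assists Rangap1 in freeing Ran from carriers, had 60.4, 50.9 and 60.0 normalized reads in the WT libraries and 114, 98.7 and 132 in the knockout libraries. Ranbp1 was 2.01-fold higher (log2 fold change 0.99, SE 0.21, adjusted p = 0.0126). It too lost its call without each WT replicate in turn (adjusted p = 0.0545, 0.0706 and 0.0589, between 0.00319 and 0.0706 across the 19 alternatives). Ranbp1 overlaps the more strongly read Trmt2a on the opposite strand, at 210.2 in WT against 218 in the knockout and not called. Rcc1, the chromatin-bound exchange factor that loads Ran with GTP, had 136, 124 and 128 normalized reads in the WT libraries and 219, 150.4 and 152 in the knockout libraries, without overlap, and did not pass (log2 fold change 0.40, SE 0.18, adjusted p = 0.163). The 4 genes took 0.0737% ± 0.00147 of all reads in WT and 0.0451% ± 0.00592 in the knockout.

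Levels were also divided by the gene length that the table gives. That length is 19005 bases for Xpo7 and 2646 for Ran, and whether it counts only translated bases is not stated. The order between genes below therefore depends on it. In WT, Ran led with 226 ± 8.23 normalized reads per kb, followed by Kpnb1 (198 ± 3.70), Nup210 (161 ± 6.73), Ranbp2 (138 ± 4.53), Tpr (110.4 ± 4.21) and Nup107 (109 ± 8.29). Tpr and Nup107 did not differ beyond their spread, and the steps above them were larger than the SDs. In the knockout Kpnb1 led with 337 ± 7.79 per kb, and Nup210 (205 ± 1.70), Tpr (203 ± 15.5), Xpo5 (199 ± 10.9), Ranbp2 (194 ± 24.3) and Nup107 (193 ± 38.9) lay within their spread of each other, with Ran at 119 ± 28.2. At the other end of the tested genes Xpo7, Ipo4 and Nup210l had 10.1 ± 1.83, 9.06 ± 1.63 and 2.58 ± 0.550 per kb in WT. Nup62cl was not tested, with 1 read in WT replicate 2 and 0 in the other libraries.

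Of 35 other genes of nuclear transport and the nuclear envelope that the naming rule does not take, 34 were tested, 4 were higher and 4 lower, or 11.8% and 11.8%, near the 10.3% and 10.9% of all tested genes. Their median log2 fold change was -0.13, near the -0.17 of all tested genes. Ncbp2, the small subunit of the nuclear cap-binding complex, had 96.7, 88.4 and 112 normalized reads in the WT libraries and 721, 645 and 923 in the knockout libraries. Ncbp2 was 7.71-fold higher (log2 fold change 2.93, SE 0.16, adjusted p = 1.60e-05). Ncbp1, its large partner, was lower, 352 ± 14.3 in WT against 253 ± 3.44 in the knockout (adjusted p = 0.0146). Ahctf1, which seeds pores on chromatin and belongs to the outer ring, had 538, 570.1 and 516 normalized reads in the WT libraries and 1211, 1429.9 and 1612 in the knockout libraries. Ahctf1 was 2.62-fold higher (log2 fold change 1.38, SE 0.11, adjusted p = 9.14e-05), while the outer ring subunits Sec13 and Seh1l had 139 ± 7.58 in WT against 135 ± 30.9 in the knockout and 215 ± 4.98 in WT against 211 ± 58.3 in the knockout. Lmnb1, a lamin beneath the pore, rose 1.39-fold and Mcm3ap, a scaffold of mRNA export, 1.48-fold. Lower were Snupn, the adaptor that imports snRNPs, by 1.85-fold, Pom121, a membrane nucleoporin, by 2.04-fold, and Nxf1, the mRNA export receptor, by 1.35-fold. Some of these genes overlap others on the opposite strand. Pom121 overlaps Nsun5, at 57.2 in WT against 31.0 in the knockout. Ncbp1 overlaps Tstd2 (82.6 against 104.8) and Xpa (24.7 against 39.9), and Ncbp2 overlaps Senp5 (36.5 against 33.7). What part of their reads was shared was not tested. The calls of Ncbp1, Snupn, Pom121, Nxf1 and Mcm3ap were lost without WT replicates 1, 2 or 3, with adjusted p of up to 0.0898, 0.145, 0.157, 0.158 and 0.0910, and that of Lmnb1 without WT replicates 2 and 3 (0.0671 and 0.0730). Cse1l, the exportin that returns importin alpha to the cytoplasm, had 334 ± 43.1 in WT against 356 ± 43.7 in the knockout, with overlapping groups and an interval of -0.22 to 0.41. The symbols Nupl2 and Nupl1, which the rule does not take, were present, Nupl2 with 24.1 ± 4.40 in WT against 42.0 ± 15.4 in the knockout and Nupl1 listed at 0 in every library, and both were looked up after the other values were seen.

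Knockout libraries scattered more than WT libraries, with a median SD of log2 levels of 0.22 against 0.075 in the transport genes and 0.68 against 0.21 in all tested genes. The transport genes had a larger SD in the knockout in 40 of 48, while the fit takes 1 spread per gene for both genotypes. Over 19 alternatives to the processing, 8 of the 19 higher genes kept their direction and their call in each: Ipo7, Kpnb1, Xpo5, Xpo6, Tpr, Nup205, Nup160 and Nup98. Ran kept its direction in all and lost its call in 1, without a variance trend (adjusted p = 0.0511, between 3.43e-07 and 0.0511 across the 19 alternatives). With 1 WT library left out, 12 to 14 of the transport genes were called higher and 1 lower, that gene being Ran. Over all tested genes 4.89% to 5.54% were then higher and 2.36% to 2.93% lower, against 10.3% and 10.9% with all 6 libraries. Calls lost without a WT library, given gene by gene above, stand beside that drop over all genes. Without a variance trend the calls of Nup107, Nup188, Nup93, Nup85, Nup210, Ranbp2, Nup88, Ipo5, Ipo8, Ran, Rangap1 and Tnpo3 were lost, and with library totals those of Nup210, Ranbp2, Nup88, Nup85 and Ipo8.

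**Figure D5:**
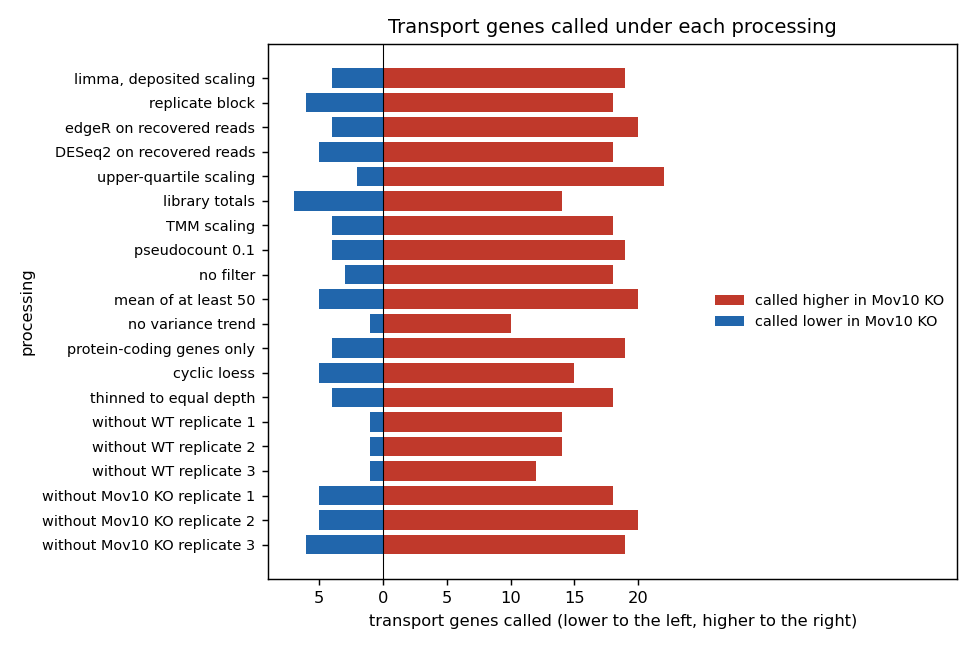
Number of transport genes called higher (to the right of 0) and lower (to the left) in the Mov10 knockout under each processing, the first bar being the limma fit with the deposited scaling. Calls fall to 10 higher and 1 lower without a variance trend and to 12 to 14 higher and 1 lower when a WT library is left out. Calls over all tested genes fall too, from 10.3% higher and 10.9% lower to 6.97% and 8.64% without a variance trend. They are 4.89% to 5.54% higher and 2.36% to 2.93% lower when a WT library is left out.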

How the data were processed

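Values deposited by the authors are signal: in each library, reads over a size factor, which the values themselves show, since 99.98% were whole multiples of 1 step (within 0.05 of a read). Camp, Rps29, Igkc, Ssr4 and Rpl27, none of them members, were not and were left out. The authors also deposited log2 fold changes, p-values with their adjusted form, and gene lengths. Which test made them, and which aligner, counter, annotation and strand setting were used, is not given in the sources used here. For Ipo7 the deposited adjusted p was 1.06e-39 and that of DESeq2 on recovered reads 1.09e-39, and for Xpo5 both were 3.53e-29. The deposited calls are thus no separate support for those of DESeq2. Per the submitters' processing notes the build is GRCm39.

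For genes with a mean of at least 1, log2(value + 1) went into limma 3.58.1 (R 4.3.3), genotype the only term, with a variance trend. The plan named this fit for normalized values. The added 1 shrinks the fold change of low genes, but values on this scale were not always the smaller. Nup35 was -2.37 here, -2.65 with a pseudocount of 0.1 and -1.91 with DESeq2. Folds are ratios of mean levels. Alternatives were a replicate block, edgeR 4.0.16 (quasi-likelihood, TMM) and DESeq2 1.42.0 on recovered reads, 3 scalings, a pseudocount of 0.1, no filter, a mean of at least 50, no variance trend, protein-coding genes only and each library left out. Cyclic loess, thinning to equal depth and level classes by WT were chosen after seeing the data. The edgeR test of recovered reads called 3213 of 10891 genes. Scripts were tested on simulated data. Members, lists and tests were chosen with earlier results of these data known. Called members (the 15 higher with the smallest p and the lower) and the hubs Ran, Kpnb1, Xpo1, Rcc1, Rangap1 and Tpr were named with values, others with means, ranges or counts, and up to 4 other pathway genes a direction. Reads carry no molecular identifiers. Figures were drawn with matplotlib 3.10.9.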

Additional observations from a re-analysis of the deposited data

How the results depend on the processing

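Counts of transport genes called higher were within 1.5 times of 19 under all alternatives except the fit with no variance trend (10) and leaving out libraries (range 12 to 20). Those called lower went from 4 to 7 with library totals, 2 with upper-quartile scaling, 1 without a variance trend and 1 to 6 with a library left out. For the other pathway genes, higher calls were 2 with library totals, 2 after cyclic loess, 2 without a variance trend and 2 to 5 with a library left out, and lower calls were 1 with no filter, 0 without a variance trend, 0 with upper-quartile scaling and 0 to 7 with a library left out. Over all tested genes, lower calls went from 1871 to 2887 with library totals and 1158 with a mean of at least 50, and with a library left out higher calls ranged from 836 to 2090 and lower calls from 403 to 2497. The median of the members went from 0.28 to 0.19 with TMM scaling, 0.050 with library totals, 0.48 with upper-quartile scaling, 0.086 after cyclic loess, 0.31 with edgeR, 0.32 with a mean of at least 50, 0.26 after thinning and 0.27 to 0.33 with a library left out. The median of all genes moved by 0.18 (upper quartile) and -0.22 (library totals), and the share of higher calls among all calls went from 48.4% to 62.7% and 30.8%.

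Sign changes of the log2 fold change were, after cyclic loess, Nup210 (-0.23), Ranbp2 (-0.098), Nup155 (-0.11), Tnpo2 (-0.083) and Xpo1 (-0.037). With library totals they were Ipo11 (-0.13), Kpna1 (-0.12), Nup155 (-0.14), Nup62 (-0.12) and Tnpo2 (-0.17). With upper-quartile scaling they were Nup153 (0.016), Nup214 (0.17), Xpo4 (0.0087), Xpo7 (0.044) and Xpot (0.088). Tnpo2 turned with TMM scaling (-0.028), after thinning (-0.016) and without knockout replicate 3 (-0.022). Nup214 turned with DESeq2 (0.016), with edgeR (0.036), after thinning (0.0043), without knockout replicates 1 (0.18) and 2 (0.0036) and without WT replicate 1 (0.025). Without knockout replicate 1 Nup62 turned (-0.19), without replicate 2 Nup155 (-0.033), Nup50 (-0.0067) and Xpo7 (0.017), and without replicate 3 Nup62 (-0.0098) and Xpo4 (0.046). With 1 library left out in turn, the values spanned -0.033 to 0.22 for Nup155, -0.25 to 0.18 for Nup214, -0.0067 to 0.61 for Nup50, -0.19 to 0.54 for Nup62, -0.022 to 0.15 for Tnpo2, -0.38 to 0.046 for Xpo4 and -0.31 to 0.017 for Xpo7. The cause of these changes was not tested.

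With the replicate number as a block, 18 transport genes were called higher and 6 lower, and 1593 and 1652 of all genes. The labels do not say whether the numbers pair the libraries. Deviations from the group means correlated at -0.0294 to -0.00550 between same-numbered libraries and at -0.00527 to 0.0241 between the others, over 6307 genes. Such values show no shared deviation of same-numbered libraries, but cannot decide how the libraries were collected. Depth limits Nup35, with 1, 15 and 5 reads in the knockout libraries, and Nup210l, with 13, 3 and 6.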
